A study of Mus musculus with 14 samples.

Results

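Expression was read for 10 genes that encode transcription factors of naive pluripotency, the state of the early epiblast and of mouse embryonic stem cells. They are Nanog, Zfp42, Esrrb, Klf2, Klf5, Tbx3, Nr5a2, Tfcp2l1, Prdm14 and Sall4, taken by a list of names, with no threshold on a measured value. All 10 were found among the 22026 genes listed, 9 under the symbol used here and Tfcp2l1 under its older symbol Tcfcp2l1. RNA came from mouse tail fibroblasts, the connective tissue cells grown from tail tissue, with the genotype label wildtype or AID-null. Each genotype label had 1 library of untreated fibroblasts and 1 library of cells 3 weeks into reprogramming by ectopic expression of Oct4, Sox2, Klf4 and cMyc, so the 4 groups had 1 library each and no replicates. How the factors were delivered, the strain, the age and the number of animals are not given in the sources used here. None of the 10 genes was among the delivered factors. DNA methylation was also profiled in 10 libraries, but the gene models needed to tie its positions to these genes were not used here.

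In mouse pluripotent cells these proteins form a densely connected network. Oct4 and Sox2 sit at its centre and often bind DNA as a pair at a composite element. Leukaemia inhibitory factor acts through Stat3 to sustain Klf4 and Tfcp2l1, Wnt signalling relieves Tcf7l1 repression of Esrrb, and FGF and ERK signalling pushes cells out of the naive state. Reactivation of the network from the cell's own genes is a late step of reprogramming, after the fibroblast programme has been lost.

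Library checks came first, because 1 library stood for each group. Levels are FPKM, fragment numbers scaled to transcript length and library size, so that levels of different genes can be compared. The read depth behind them is unknown. Libraries are called by their labels throughout. Xist, the RNA that coats an inactive X chromosome, had 456 and 149 FPKM in the libraries labelled wildtype, against 0.99 and 1.78 FPKM in those labelled AID-null. The Y-linked gene Eif2s3y had 0 in the libraries labelled wildtype, against 184 and 274 FPKM. Each comparison of genotype labels below is therefore also one between libraries that differ in Xist and in Y-linked transcripts. Genotype label and these differences cannot be told apart. Genes on the X chromosome are not marked in what follows, and their part in the differences was not tested. The libraries listed 13381 to 14668 genes at 1 FPKM or more.

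In fibroblasts 7 of the 10 genes were below 2 FPKM under both labels, and 3 of those, Nr5a2, Prdm14 and Sall4, were listed at 0 in both. The other 3 genes, Klf2, Klf5 and Tbx3, were above 5 FPKM in both fibroblast libraries. At 3 weeks all 10 genes were at 8.00 FPKM or more under both labels. Bulk RNA cannot tell fewer cells of a type from less RNA per cell.

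**Figure D1:**
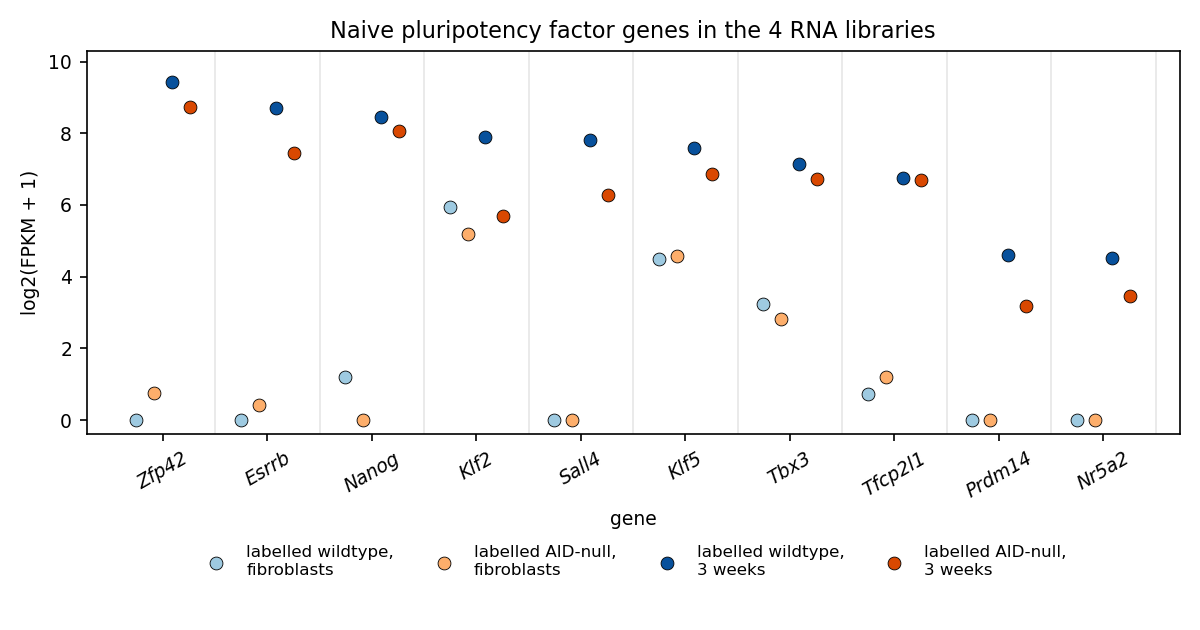
Level of each of the 10 genes as log2(FPKM + 1), 1 point per library, with genes ordered by their level in the 3-week library labelled wildtype. Both 3-week points lie above both fibroblast points for 9 genes. For Klf2 the 3-week point labelled AID-null, at 5.71, lies below the fibroblast point labelled wildtype, at 5.94.

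Nanog, a homeodomain protein that stabilises the pluripotent state, was at 1.29 FPKM in fibroblasts labelled wildtype and listed at 0 in those labelled AID-null. Its 3-week levels were 347 FPKM under the wildtype label and 265 FPKM under the AID-null label. Both 3-week libraries were thus far above both fibroblast libraries, and the AID-null label stood at 76.4% of the wildtype label. Nanog has pseudogene copies in the mouse genome, and how reads that fit several copies were assigned is not given in the sources used here, so its level is uncertain. The Nanog promoter is shown because it holds a paired Oct4 and Sox2 element. RefSeq lists 2 start sites for it whose windows overlap, and the second window, chr6:122707315-122707614 on the plus strand of GRCm38.p6, covers 250 bases before to 50 bases after that start.
Nanog: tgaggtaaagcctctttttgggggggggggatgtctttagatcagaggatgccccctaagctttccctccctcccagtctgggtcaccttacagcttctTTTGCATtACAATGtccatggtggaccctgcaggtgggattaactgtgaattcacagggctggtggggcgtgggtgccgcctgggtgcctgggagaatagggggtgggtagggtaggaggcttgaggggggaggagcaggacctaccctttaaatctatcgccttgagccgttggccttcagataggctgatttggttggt
Capitals mark the octamer core ATGCAAA and the SOX core CATTGT, both read on the opposite strand, at positions −151 to −145 and −143 to −138 from the start. Of 32851 promoter windows of the same length, 2 held the composite CATTGTNATGCAAA on either strand, and both were the windows of Nanog. A match of letters is a description of the sequence and not a measured binding site.

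Zfp42, also called Rex1, encodes a zinc finger protein of the YY1 family and is a classic reporter of the naive state. It was listed at 0 in fibroblasts labelled wildtype and at 0.70 FPKM in those labelled AID-null. At 3 weeks it was at 691 FPKM under the wildtype label and 423 FPKM under the AID-null label, the highest of the 10 genes in both libraries. The level under the AID-null label was 61.2% of that under the wildtype label. Its promoter is shown because, like that of Nanog, it holds the octamer core. The window is chr8:43306960-43307259 on the minus strand of GRCm38.p6.
Zfp42: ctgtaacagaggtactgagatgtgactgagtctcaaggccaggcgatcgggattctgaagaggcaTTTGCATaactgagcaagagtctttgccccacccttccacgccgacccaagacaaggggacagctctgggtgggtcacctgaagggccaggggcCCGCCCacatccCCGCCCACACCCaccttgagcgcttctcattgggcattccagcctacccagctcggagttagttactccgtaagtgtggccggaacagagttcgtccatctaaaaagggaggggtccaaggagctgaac
Capitals mark the octamer core on the opposite strand at −185 to −179, the GC box GGGCGG on the opposite strand at −91 to −86 and −79 to −74, and the KLF box GGGTGTG on the opposite strand at −74 to −68. The second GC box and the KLF box share 1 base. The octamer core occurred in 4.63% of all promoter windows.

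Esrrb, an orphan nuclear receptor that can stand in for Nanog in reprogramming, was listed at 0 in fibroblasts labelled wildtype and at 0.35 FPKM in those labelled AID-null. Its 3-week levels were 414 FPKM under the wildtype label and 174 FPKM under the AID-null label. It was therefore in place 2 of the 10 genes under the wildtype label and in place 3, below Nanog, under the AID-null label. Nr5a2, a nuclear receptor that can replace Oct4 among reprogramming factors, was listed at 0 in both fibroblast libraries and reached 22.0 FPKM under the wildtype label and 10.1 FPKM under the AID-null label. It and Prdm14 were the lowest of the 10 in both 3-week libraries. The AID-null label stood at 42.0% of the wildtype label for Esrrb and at 45.8% for Nr5a2.

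Klf2 and Klf5 are Krüppel-like zinc finger factors that share many targets with Klf4, one of the delivered factors. Klf2 was at 60.3 FPKM in fibroblasts labelled wildtype and 35.8 FPKM in those labelled AID-null. In the 3-week libraries it was at 238 FPKM under the wildtype label and 51.2 FPKM under the AID-null label. The 3-week level was 3.96 times (wildtype label) and 1.43 times (AID-null label) that of the fibroblasts with the same label. Klf2 was thus the one gene of the 10 whose 3-week level under the AID-null label lay below a fibroblast level, that of the wildtype label. Its promoter is shown because the gene was already transcribed in fibroblasts and its window holds the most CpG dinucleotides of the 10 genes' windows in the table. The window is chr8:72318812-72319111 on the plus strand of GRCm38.p6.
Klf2: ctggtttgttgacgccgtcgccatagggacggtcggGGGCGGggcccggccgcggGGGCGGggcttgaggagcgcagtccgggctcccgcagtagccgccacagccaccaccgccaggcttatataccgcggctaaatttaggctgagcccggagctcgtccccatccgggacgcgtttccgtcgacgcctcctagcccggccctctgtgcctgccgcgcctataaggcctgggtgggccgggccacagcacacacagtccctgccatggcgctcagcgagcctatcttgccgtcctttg
Capitals mark the GC box at −214 to −209 and −195 to −190. The window holds 32 CpG, and 91.4% of all windows hold no more. GC boxes occurred in 35.7% of all windows.

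Klf5 was at 21.4 FPKM in fibroblasts labelled wildtype and 22.7 FPKM in those labelled AID-null, the least different of the 3 genes transcribed there. Its 3-week levels were 193 FPKM under the wildtype label and 115 FPKM under the AID-null label. The 3-week levels were 9.04 and 5.05 times the fibroblast levels of the same label. Tbx3, a T-box factor linked to the phosphoinositide 3-kinase branch of LIF signalling, was at 8.35 FPKM in fibroblasts labelled wildtype and 6.11 FPKM in those labelled AID-null. After 3 weeks it was at 139.6 and 104 FPKM, which was 16.7 and 17.0 times the fibroblast level under the wildtype and the AID-null label. Its increase over the fibroblasts was thus of nearly the same size under both labels.

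Tfcp2l1, a CP2-family factor and a direct target of Stat3 in the naive state, was at 0.67 FPKM in fibroblasts labelled wildtype and 1.32 FPKM in those labelled AID-null. At 3 weeks it was at 108 FPKM under the wildtype label and 102 FPKM under the AID-null label. It was the member that differed least between the 3-week libraries, with the AID-null label at 94.9% of the wildtype label. Its promoter is shown because it alone of the 10 genes' windows in the table holds the exact letters TATAAA directly before the start. Other forms of the TATA box were not searched. The window is chr1:118627695-118627994 on the plus strand of GRCm38.p6.
Tfcp2l1: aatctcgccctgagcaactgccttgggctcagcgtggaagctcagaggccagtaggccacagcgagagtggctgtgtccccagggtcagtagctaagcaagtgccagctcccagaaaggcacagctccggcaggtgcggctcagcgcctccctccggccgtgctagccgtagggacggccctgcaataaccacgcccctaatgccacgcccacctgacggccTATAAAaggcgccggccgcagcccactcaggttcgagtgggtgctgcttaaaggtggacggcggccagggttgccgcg
Capitals mark the TATA box TATAAA at −28 to −23. That motif occurred anywhere in 13.6% of all windows.

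Prdm14, which restrains FGF signalling and de novo DNA methylation in naive cells and is needed in primordial germ cells, was listed at 0 in both fibroblast libraries. After 3 weeks it was at 23.4 FPKM under the wildtype label and 8.00 FPKM under the AID-null label. Sall4, a zinc finger partner of Oct4 and Nanog, was likewise listed at 0 in both fibroblast libraries and was at 223 and 76.7 FPKM at 3 weeks under the wildtype and the AID-null label. These 2 genes stood at almost the same share of the wildtype label, 34.2% for Prdm14 and 34.3% for Sall4, although their levels differed widely.

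The order of the genes by level was compared between the 3-week libraries. Under the wildtype label it ran from Zfp42, Esrrb, Nanog, Klf2, Sall4, Klf5, Tbx3 and Tfcp2l1 down to Prdm14 and Nr5a2. Under the AID-null label it ran from Zfp42, Nanog, Esrrb, Klf5, Tbx3, Tfcp2l1, Sall4 and Klf2 down to Nr5a2 and Prdm14. Klf2 thus stood in place 4 under the wildtype label and 8 under the AID-null label, and Sall4 in place 5 and 7. The highest gene was 31.4 times the lowest under the wildtype label and 52.9 times under the AID-null label. With 1 library per group, no spread is available to say which neighbours in these orders differ.

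Each 3-week library was set against the fibroblasts of the same label, to ask how far the network had been activated. The bound for calling a gene higher or lower was 1 in log2(FPKM + 1), which is 2-fold on that scale and understates the change of low genes, among genes at 1 FPKM or more in either library. Under the wildtype label 10 of 10 genes were at least 2-fold higher at 3 weeks, where 27.0% of the 15196 genes compared were higher. Under the AID-null label 9 of 10 were, where 21.3% of 15076 genes were. The exception was Klf2, with a log2 difference of 0.50 under the AID-null label against 1.97 under the wildtype label. The median log2 difference of the 10 genes was 5.32 under the wildtype label and 4.68 under the AID-null label, against 0.16 and −0.05 over all genes compared. Genes listed at 0 in fibroblasts make those medians depend on the added 1 FPKM. Over the 4 genes above 0 in all libraries the medians were 3.51 and 3.09.

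**Figure D2:**
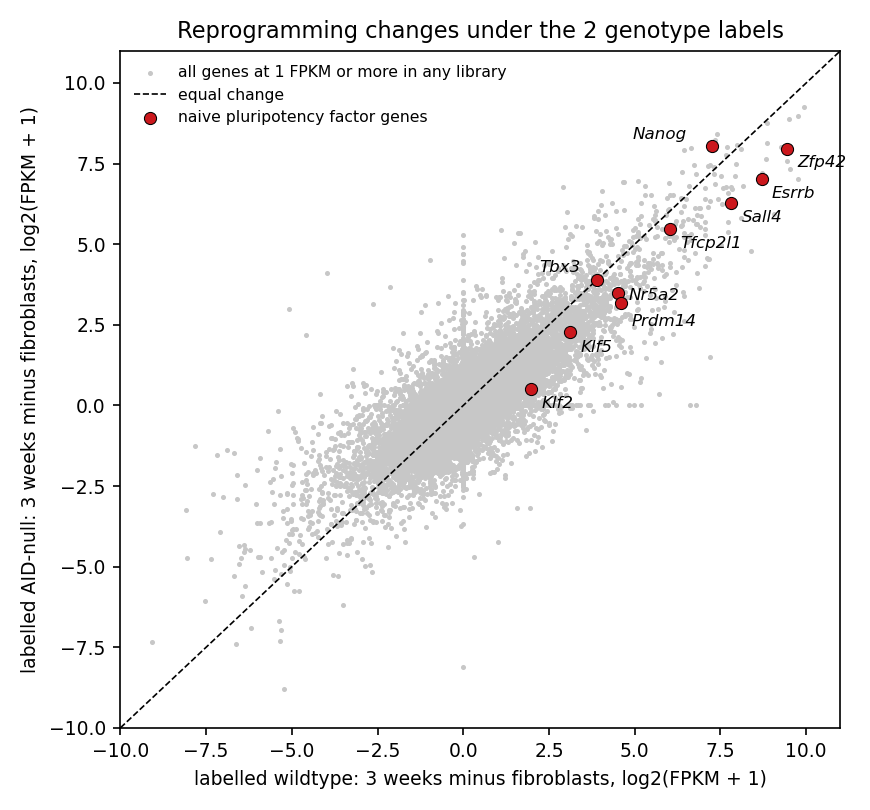
Change from fibroblasts to 3 weeks in log2(FPKM + 1) under the wildtype label (horizontal axis) and the AID-null label (vertical axis), for all genes at 1 FPKM or more in any library (grey) and the 10 genes (red), with a dashed line of equal change. Of the 10 genes, 1, Nanog, lies above the line and Tbx3 lies almost on it.

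The changes themselves were set against each other, label AID-null minus label wildtype. The difference was at most −1 for 6 of the 10 genes, Zfp42, Esrrb, Klf2, Nr5a2, Prdm14 and Sall4, where it was at most −1 for 13.9% of 15624 genes. It was at least 1 for 0 of the 10, where it was for 9.68%. The median was −1.25, against −0.18 over all genes. Esrrb was at −1.68, Sall4 at −1.53, Zfp42 at −1.47 and Klf2 at −1.46. The values of Zfp42 and Esrrb rest on fibroblast levels below 1 FPKM. With 0.1 FPKM added they were −3.71 and −3.42, and with 5 FPKM added −0.89 and −1.32, so that Zfp42, like Nr5a2 at −0.84, no longer reached −1. Sall4 moved between −1.54 and −1.48 and Klf2 between −1.47 and −1.44 under these settings, so the order of the lowest genes depends on the amount added. Nanog, at 0.81, was the one gene with a positive value, and that value rests on the 1.29 FPKM in fibroblasts labelled wildtype, since the 3-week levels went the other way. With 5 FPKM added in place of 1 the value of Nanog was −0.051. For Nr5a2, Prdm14 and Sall4, at 0 in both fibroblast libraries, this difference equals that between the 3-week libraries.

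Between the fibroblast libraries the question was whether the genes differed before reprogramming. Of the 5 genes at 1 FPKM or more in either library, 1 was lower by 2-fold or more under the AID-null label, Nanog at 1.29 FPKM and 0, where 1.34% of 13788 genes were lower. None was higher, where 4.26% were. Klf2 had a log2 difference of −0.73, Tbx3 −0.40, Klf5 0.09 and Tfcp2l1 0.47. The Nanog count rests on a level near 1 FPKM and was 0 with 5 FPKM added or with a minimum of 5 FPKM. Markers of other cells already differed between these libraries, and their part in the result was not tested. Higher by 2-fold or more with the AID-null label were 11 of 13 macrophage markers, summing to 1815 and 3203 FPKM with none at 0, and 4 of 7 muscle markers compared, with sums of 20.3 and 46.9 FPKM over 9 genes. Myod1 and Ckm were listed at 0 in both fibroblast libraries. Of 8 pluripotent cell markers compared 4 were higher and 0 lower, with sums of 13.6 and 32.9 FPKM over 10 genes. Of 15 fibroblast markers 1, Fap, was higher, with sums of 89330.0 and 102400.0 FPKM. Keratinocyte markers summed to 29.8 and 24.4 FPKM, with 2 of 6 compared lower.

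Between the 3-week libraries all 10 genes were lower under the AID-null label in FPKM as deposited, by log2 differences of −0.08 for Tfcp2l1 to −2.20 for Klf2. Below 0 lay 59.9% of the 15204 genes compared. At least 2-fold lower were 5 of the 10, Klf2, Sall4, Prdm14, Esrrb and Nr5a2, where 11.6% of all genes were, and 0 were higher, where 9.76% were. The median of the 10 was −0.90, against −0.18 over all genes. Klf2 was at −2.20, with 181 genes lower than it, Sall4 at −1.53 and Prdm14 at −1.44. Summed over the 10 genes, FPKM under the AID-null label were 55.4% of those under the wildtype label, and 53.0% without Zfp42. These differences compare 1 library with 1 library and have no replicate check.

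The balance of all genes depended on how libraries were scaled. As deposited, 45.8% of the genes past 2-fold at 3 weeks were higher under the AID-null label. The share was 58.6% after scaling to equal upper quartiles and 61.7% after median-of-ratios scaling, which moved the median of all genes from −0.18 to −0.02 and 0.02. Under these scalings 4 of the 10 genes were at least 2-fold lower, where 8.61% and 7.86% of all genes were, and Nr5a2 was no longer among them at −0.90 and −0.86. Tfcp2l1 then lay above 0, at 0.091 and 0.13, so its direction depends on the scaling. The other 9 genes stayed below 0 under both scalings. Relative levels within a library do not depend on scaling. Pou5f1, which encodes Oct4 and was taken as a reference after its value was seen, stood at 64.4% of the wildtype label. Oct4 was also a delivered factor, and its FPKM may hold both delivered and endogenous transcripts. Nanog, Tbx3 and Tfcp2l1 had a higher share and the other 7 genes a lower one.

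**Figure D3:**
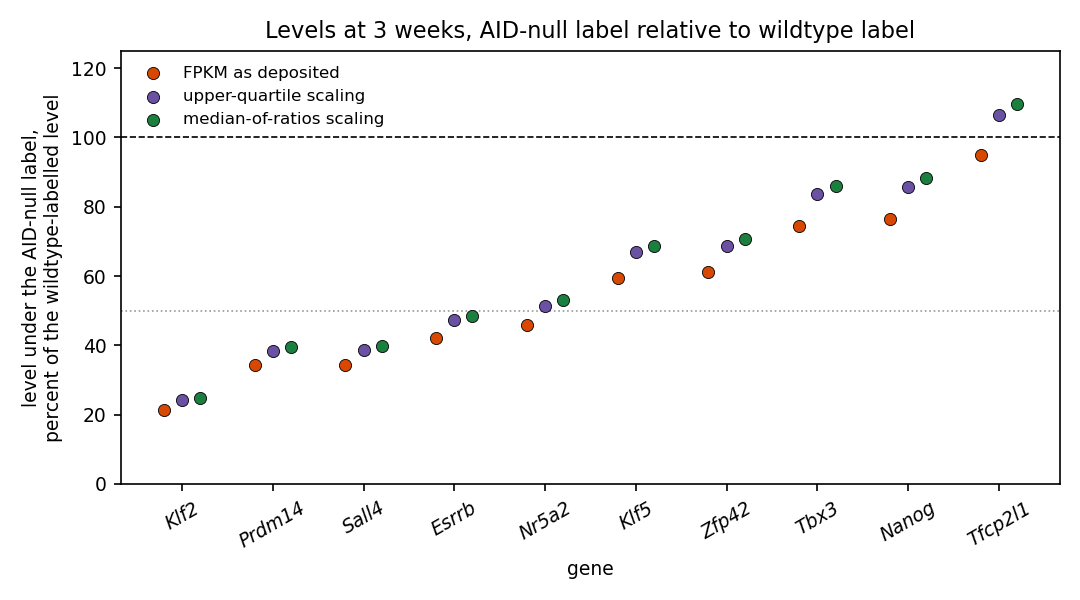
Level under the AID-null label as a percent of that under the wildtype label at 3 weeks, for each of the 10 genes, as deposited and under the other two scalings, with a dashed line at 100% and a dotted line at 50%. Klf2 lies between 21.5% and 24.8% under the 3 scalings, Tfcp2l1 between 94.9% and 109.6%.

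Markers of other cells moved with these differences, and their part in the result was not tested. The 15 fibroblast markers summed to 8012 FPKM under the wildtype label and 26160.0 FPKM under the AID-null label at 3 weeks, and 11 of 15 were at least 2-fold higher with the AID-null label. The 15 were all above 0 in both libraries. The 13 macrophage markers found summed to 642 and 1676 FPKM, with 10 of 13 higher, where 9.76% of all genes were. Tyrobp, C1qa, C1qb, C1qc, Ptprc and Emr1 were listed at 0 under the wildtype label. Cd14 fell from 219 FPKM (wildtype label) to 147 FPKM (AID-null label), and Laptm5 from 265 to 184 FPKM. Along with Cd68 (112 and 193 FPKM), they had the largest values of the macrophage markers in the 3-week library labelled wildtype. The 12 keratinocyte markers summed to 521 and 154 FPKM, with 7 of 11 compared lower, and Krt6a, Krt6b, Krt1, Ivl and Dsg3 were listed at 0 under the AID-null label. Of these, Krt1 and Dsg3 were at only 1.19 and 1.75 FPKM under the wildtype label. Trp63 was listed at 0 under the wildtype label and at 0.34 FPKM under the AID-null label, too low to be compared. The 10 pluripotent cell markers had a median log2 difference of −0.17, close to that of all genes, with 1 of 10, L1td1, at least 2-fold lower. All 10 were above 0 in both 3-week libraries.

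The genes were next read beside their listed relatives. Nanog had none, and the listed relative of Nr5a2 was at 0 FPKM in all 4 libraries. Tbx3 stood in place 4 of 16 T-box genes in both fibroblast libraries, where Tbx15, a T-box gene of mesenchyme, was highest at 59.5 and 57.0 FPKM under the wildtype and AID-null label. At 3 weeks Tbx3 was first under both labels, with 68.9% of the summed T-box FPKM under the wildtype label and 48.9% under the AID-null label. Tbx18, another mesenchymal T-box gene, was at 12.4 FPKM under the wildtype label and 48.9 FPKM under the AID-null label at 3 weeks, where its fibroblast levels were 42.3 and 47.5 FPKM. Esrra, the widely expressed relative of Esrrb, was at 57.7 to 71.0 FPKM in all 4 libraries, while Esrrb supplied 85.6% of the FPKM of the 3 related receptors under the wildtype label and 73.1% under the AID-null label at 3 weeks.

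Among the 17 KLF genes, Klf2 stood in place 6 in fibroblasts labelled wildtype and 7 in those labelled AID-null. At 3 weeks it was in place 2 under the wildtype label, with 14.4% of the KLF sum, and in place 8 under the AID-null label, with 4.92%. Klf5 went from place 12 in both fibroblast libraries to place 3 in both 3-week libraries, with 11.7% and 11.1% of the sum. The KLF genes thus differed among themselves: Klf5 had nearly the same share under both labels and Klf2 did not. Klf4 was at 106.6 and 68.8 FPKM in fibroblasts and at 106.5 and 43.3 FPKM at 3 weeks, in which delivered and endogenous transcripts are not distinguished. Klf8 was at 66.6 and 22.1 FPKM at 3 weeks, and Klf6, an early response gene, at 176 and 182 FPKM. Of the 14 other KLF genes compared, 3 were lower by 2-fold or more in the 3-week library labelled AID-null, with a median of −0.54, beside 11.6% of all genes lower and a median of −0.18. Klf12 was at 25.7 and 10.9 FPKM.

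Sall4 was the highest of the 4 SALL genes at 3 weeks under both labels. Its relative Sall1 was at 142 FPKM under the wildtype label and 31.0 FPKM under the AID-null label, and Sall3 at 23.2 and 0.48 FPKM. Sall2, the SALL gene of the fibroblasts at 24.9 and 23.3 FPKM, was at 21.4 and 12.1 FPKM. All 4 SALL genes were lower under the AID-null label. Zfp42 passed Yy1, its broadly expressed relative, which was at 309 and 210 FPKM at 3 weeks. Tfcp2l1 stayed below its relative Ubp1, at 163 and 124 FPKM. Prdm14 stayed below Prdm4, at 81.4 and 51.9 FPKM, under both labels. Prdm1, which drives germ cell specification, differed the other way from Prdm14, at 16.9 and 32.3 FPKM.

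**Figure D4:**
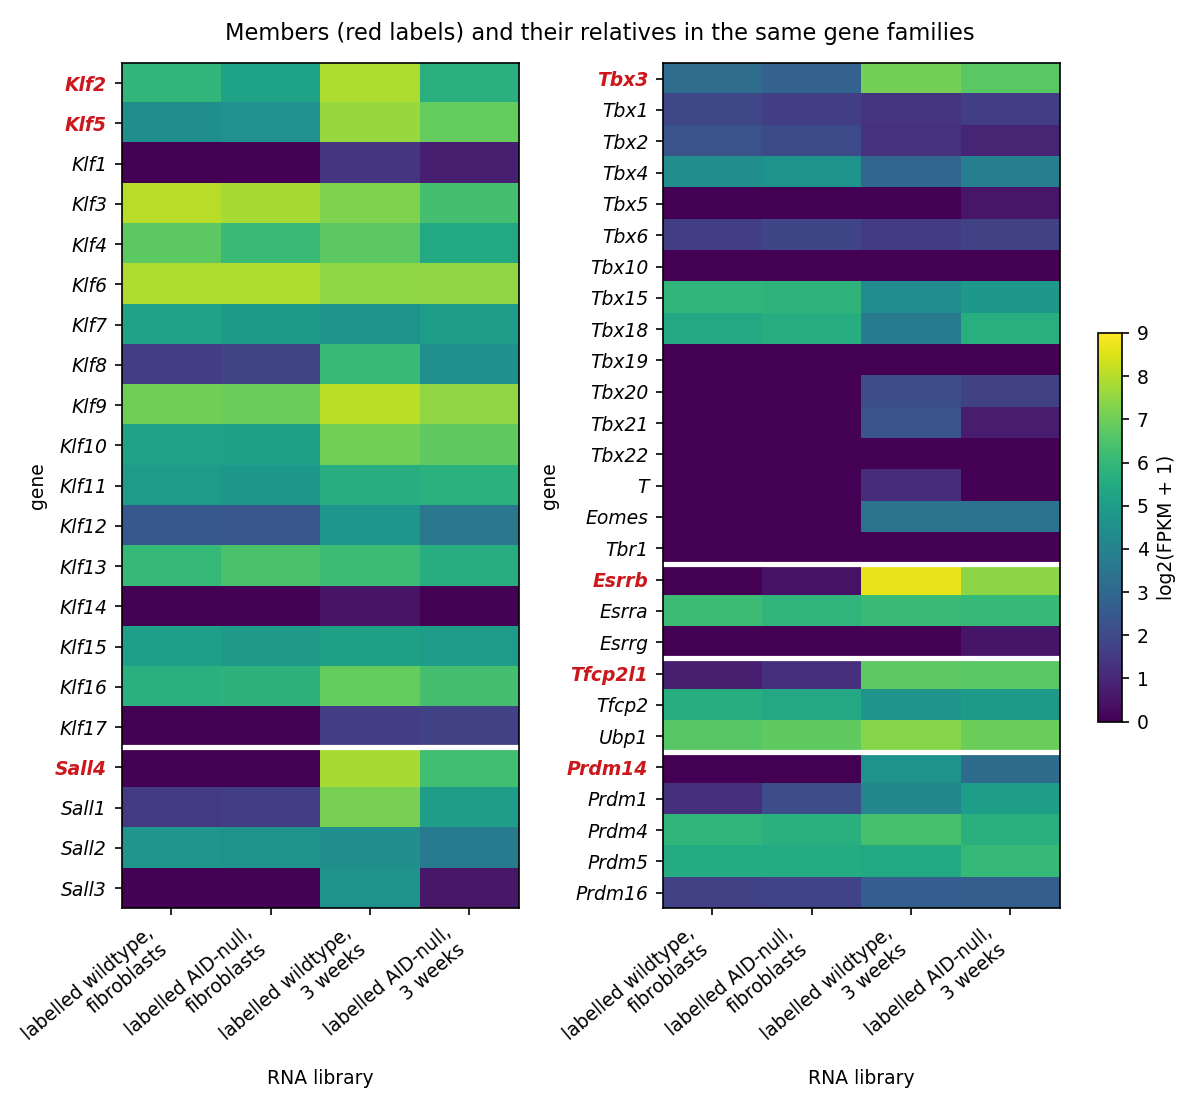
Level as log2(FPKM + 1), from 0 (dark) to 9 (yellow), of members (red labels) and their relatives in the 4 RNA libraries. White lines separate families, and Nanog, Nr5a2 and Zfp42 are not shown. Tbx3, Esrrb and Sall4 turn from dark to bright between fibroblasts and 3 weeks, and Klf2 is brightest in the 3-week library labelled wildtype.

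The signals that feed the network were read from lists of known pathway genes. Of 18 genes of the LIF, BMP and WNT inputs, 5 were lower by 2-fold or more and 1 higher in the 3-week library labelled AID-null, with a median log2 difference of −0.21 against −0.18 over all genes, 11.6% of which were lower and 9.76% higher. Lif, the cytokine itself, was at 93.3 FPKM under the wildtype label and 14.0 FPKM under the AID-null label. Socs3, in the same list, was higher under the AID-null label, at 137 and 252 FPKM. Pim1 was at 160 and 159 FPKM and Stat3 at 176 and 164 FPKM. Of the 18 genes, 14 lay below 0 and 4 above. Id1 and Id3, targets of BMP signalling, were at 271 and 82.2 FPKM and at 484 and 135 FPKM. The receptor subunit gene Il6st, by contrast, was much lower at 3 weeks than in fibroblasts under both labels, going from 1226 to 129 FPKM under the wildtype label and from 1303 to 279 FPKM under the AID-null label. Of 15 FGF and ERK genes, 2 were at least 2-fold lower and 0 higher, the feedback inhibitors Spry2 and Spry4, at 367 and 181 FPKM and at 145 and 38.7 FPKM. This number of genes is close to the 11.6% lower among all genes. Dusp6, another feedback inhibitor, was at 272 and 144 FPKM. The ligand gene Fgf4 was listed at 0 in both fibroblast libraries and was at 250.2 and 268 FPKM at 3 weeks.

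Other genes of the network were compared in the same way. For each list below, the shares over all genes compared were 11.6% lower and 9.76% higher, with a median of −0.18. Of 16 other core and naive regulators, 5 were lower by 2-fold or more and 1 higher in the 3-week library labelled AID-null, with a median of −0.72. The number higher in this list is not above the share of all genes. Nr0b1, a nuclear receptor family repressor of pluripotent cells, was at 332 and 26.8 FPKM, and Gbx2, a Stat3 target, at 35.7 and 2.28 FPKM. Tfe3 (listed as Tcfe3), whose nuclear form supports Esrrb transcription, was at 632 and 114 FPKM. In fibroblasts Tfe3 was already at 206 and 105 FPKM, while Nr0b1 was at 0 in both libraries and Gbx2 at 0 and 0.82 FPKM. Genes on the X chromosome are not marked in these lists, and their part was not tested. Otx2, which drives exit from the naive state, was the gene at least 2-fold higher, by a log2 difference of 1.03, at 168 and 343 FPKM. Of 20 effector and marker genes of the naive state, 7 were lower and 2 higher, with a median of −0.40. The number higher is close to the share of all genes. Eras, a constitutively active Ras of embryonic stem cells, was at 112 and 16.1 FPKM, the threonine dehydrogenase gene Tdh at 274 and 55.8 FPKM and the RNA-binding protein gene L1td1 at 744 and 162 FPKM. Of 15 primed and formative genes, which mark the later epiblast, 8 were lower and 1 higher, with a median of −1.01. Of the 15, 14 lay below 0, Otx2, which is also in this list, being the exception. Among the 8, T, Mixl1 and Wnt3 were at 1.22, 1.4 and 1.16 FPKM under the wildtype label, near the minimum of 1 FPKM. The same genes were listed at 0 under the AID-null label. Dnmt3b, at −1.01, was only just past the bound. Cer1, a Nodal antagonist, was at 16.7 FPKM under the wildtype label and listed at 0 under the AID-null label, while Sox3 was at 20.8 and 3.07 FPKM and Pou3f1 at 72.9 and 24.0 FPKM.

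**Figure D5:**
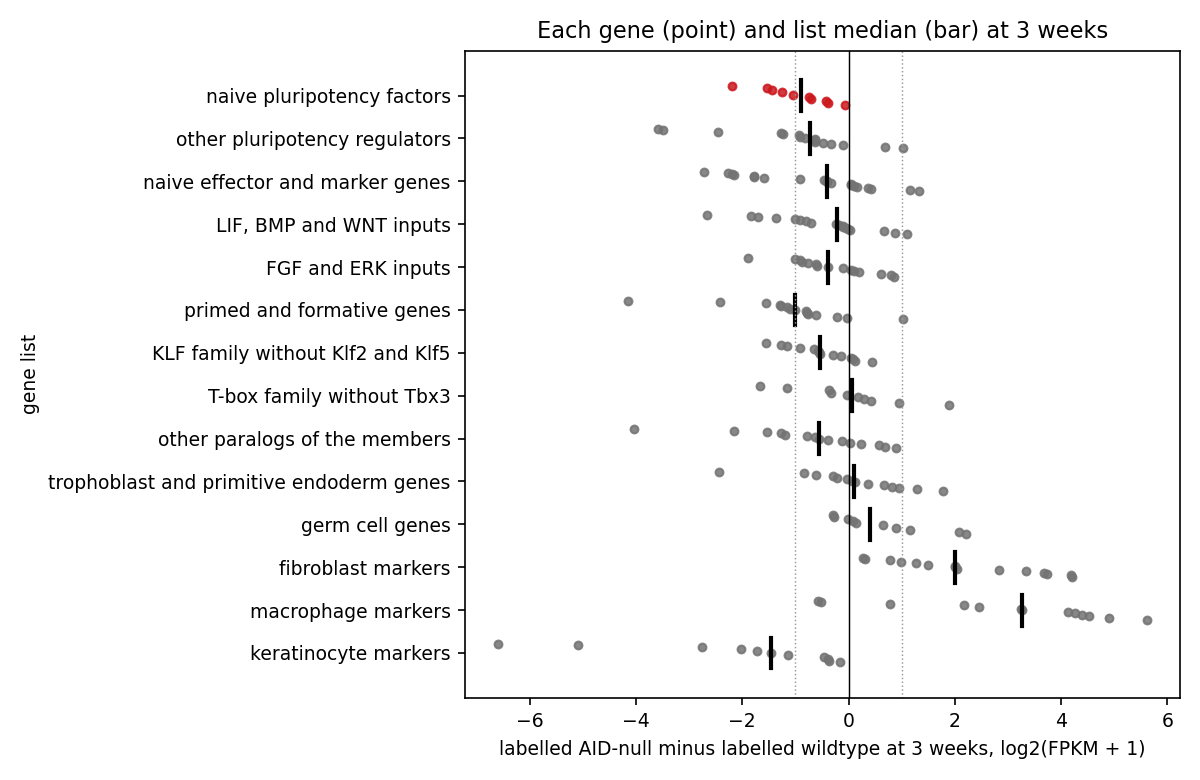
Difference between the 3-week libraries, label AID-null minus label wildtype, in log2(FPKM + 1) for each gene at 1 FPKM or more in either library (points) and the median of each list (bars), with dotted lines at −1 and 1. The 10 naive factors (red) all lie below 0, the T-box relatives spread to both sides of 0, and the 15 fibroblast markers all lie above 0.

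Genes with the most similar profiles were found by the Euclidean distance of log2(FPKM + 1) over the 4 libraries. The gene nearest to Nanog was AU018091 at a distance of 0.58, that nearest to Zfp42 was Lefty2, a Nodal antagonist, at 0.74, and that nearest to Esrrb was Gm13242 at 0.57. Klf5 lay nearest to Rfc5, a subunit of the clamp loader of DNA replication, at 0.28, and Tbx3 to Mcm10, a replication initiation factor, at 0.71. Klf2 lay nearest to Timm8a1, a mitochondrial import gene, at 0.63, and Tfcp2l1 to Gm949 at 0.41. For 3 genes listed at 0 in both fibroblast libraries the nearest gene was closer: Atp6v1c2 at 0.033 for Nr5a2, Klk10 at 0.073 for Prdm14 and Rbmxl2 at 0.029 for Sall4. In the fibroblast libraries labelled wildtype and AID-null, 36.1% and 35.4% of all genes were at 0. A shared 0 adds no distance, so these smaller distances follow in part from the zeros. Within the set the closest pair was Nr5a2 and Prdm14, both among these 3 genes, at 0.31. The gene nearest to the median profile of the 10 was Gm13138 at 0.48, followed by Igf2bp1, an RNA-binding protein of embryonic cells, at 0.52, and Zfp534 at 0.63. Gm13138, Zfp534, Zfp600 and Gm13154, which were among the 10 nearest, belong to multigene zinc finger families whose reads can be split between close copies, so their values are uncertain. These distances cover 4 libraries without replicates and describe likeness of level alone.

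The promoter table of RefSeq held windows for 6 of the 10 genes, with 9 start sites in all. Klf5, Tbx3, Prdm14 and Sall4 had none. CpG counts were 4 in both Nanog windows, 11 for Zfp42, 7 in both Esrrb windows, 21 for Tfcp2l1 and 32 for Klf2, and 7 and 2 for Nr5a2, against a median of 7 over all windows. Klf2, the one of these 6 transcribed above 5 FPKM in fibroblasts, had the most. The octamer core was found for 2 of the 6 genes, Nanog and Zfp42. The SOX core, present in 12.6% of all windows, was found for Nanog and Esrrb, the GC box for Klf2 and Zfp42, the KLF box, present in 7.95%, for Esrrb and Zfp42, and the TATA box for Nr5a2 and Tfcp2l1. The nuclear receptor element AAGGTCA, in 4.72% of all windows, and the STAT site TTCCNGGAA, in 1.15%, were found in none of the 9 windows. All motifs were searched on both strands, the composite overlaps its 2 parts, and a missing match says only that the letters are not in these windows.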

How the data were processed

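RNA was measured in 4 libraries, 1 per group, from mouse tail fibroblasts and cells 3 weeks into reprogramming, and groups were taken from the sample titles. TopHat, Cufflinks and the build mm9 are named in the submitters' processing notes, without versions, and no gene annotation is named there. The authors deposited 1 FPKM value per gene and library, per the file headers. No step common to the libraries was found among low values, so the depth could not be recovered and count tests do not apply. The 10 deposited methylation files are in mm9 positions and were not used here, since no annotation of that build was at hand.

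From FPKM, differences of log2(FPKM + 1) were computed with pandas 2.3.3 and numpy 2.4.6 in Python 3.11.15. A gene was compared at 1 FPKM or more in either library and counted at a difference of at least 1. With 1 library per group there is no test and no p-value. A gene listed at 0 may be a failed estimate, so no fold is given against 0. The fold counting was tested on simulated data. The 10 genes and all lists were chosen with earlier results of these data known. Genes named are the members and, from the rest, genes among the 3 of a list with the largest absolute difference in a comparison, relatives at 10 FPKM or more in any library and the nearest profiles; of these, not all are named. Markers of other cells that are listed at 0, Cd14, Cd68, Laptm5, Cdx2, Mixl1, Wnt3, Socs3, Stat3, and the use of Pou5f1 as a reference were chosen after values were seen. Older symbols were matched through the RefSeq gene table of GRCm38.p6, and promoter windows come from RefSeq of the same build. Alternatives were a pseudocount of 0.1 or 5 FPKM, upper-quartile and median-of-ratios scaling, and no minimum or a minimum of 5 FPKM. The level of the targeted gene is not reported here.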

Additional observations from a re-analysis of the deposited data

How the results depend on the processing

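The median log2 difference of the 10 genes under the wildtype label, 5.32, was 7.83 with a pseudocount of 0.1 FPKM, 3.87 with 5 FPKM and 5.24 after median-of-ratios scaling. Under the AID-null label, 4.68 became 6.51, 3.66, 4.86 (upper-quartile scaling) and 4.81 (median of ratios). Between the 3-week libraries, −0.90 became −0.93, −0.78, −0.74 and −0.70. The median difference of the changes, −1.25, became −1.29, −0.87, −1.09 and −1.05 in the same order. The number of genes at most −1 in that difference was 6, 4, 5 and 5 against 6, and the number at least 1 was 1 (Nanog) with a pseudocount of 0.1 FPKM against 0. These 2 counts were rerun by a choice made after seeing the data. The 1 gene lower in fibroblasts labelled AID-null became 0 with a pseudocount or a minimum of 5 FPKM. The difference of changes of Tbx3, −0.03, turned to 0.019, 0.082 and 0.15 with a pseudocount of 0.1 FPKM, upper-quartile and median-of-ratios scaling, and that of Nanog from 0.81 to −0.051 with 5 FPKM. Tfcp2l1 between the 3-week libraries turned from −0.08 to 0.091 and 0.13 under the same scalings. All other counts stayed within 1.5 times under the alternatives run. No paired analysis was possible because each RNA group had 1 library and the replicate numbers belong to methylation clones that were not used here. Depth is unknown for these FPKM, so differences of genes near 1 FPKM, such as Nanog in fibroblasts, cannot be given a counting error.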

Other observations

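Some of the 10 factors also act in trophoblast, primitive endoderm or germ cells, and genes of those lineages were read beside them. Of 14 trophoblast and primitive endoderm genes compared at 3 weeks, 2 were at least 2-fold higher and 1 lower under the AID-null label, with a median log2 difference of 0.10. Over all genes 9.76% were higher and 11.6% lower, close to these counts. Krt18, a keratin of simple epithelia, was at 86.3 FPKM under the wildtype label and 213 FPKM under the AID-null label. It was also listed at 0 in fibroblasts labelled wildtype and at 34.1 FPKM in those labelled AID-null. Krt8, a second keratin among these genes, had less RNA under the AID-null label at 3 weeks, 81.0 FPKM against 145 FPKM. In fibroblasts Krt8 was listed at 0 (wildtype label) and 28.1 FPKM (AID-null label). The 1 gene at least 2-fold lower was Elf5, with 4.40 FPKM under the wildtype label and 0 under the AID-null label. Pdgfra, a receptor shared by primitive endoderm and fibroblasts, was at 81.8 and 283 FPKM at 3 weeks. Cdx2, a defining trophoblast factor, was listed at 0 in all 4 libraries.

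Of 10 germ cell genes compared at 3 weeks, 3 were at least 2-fold higher and 0 lower under the AID-null label. Over all genes 9.76% were higher and 11.6% lower, so the number lower is close to that share. The median of the 10 was 0.40 against −0.18 over all genes. Of the 10, 3 lay below 0, Tfap2c (listed as Tcfap2c) at −0.29, Dnd1 at −0.28 and Kit at −0.02. Dazl, an RNA-binding protein of germ cells, was at 14.4 and 64.1 FPKM, Mael, of the piRNA pathway, at 15.1 and 73.7 FPKM, and Dppa3, which protects maternal imprints, at 14.5 and 33.6 FPKM. Prdm14, which is needed in primordial germ cells, went the other way, at 23.4 and 8.00 FPKM. In FPKM as deposited, so did all 10 naive factors. These levels have no replicate check.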
